A study of Mus musculus with 28 samples.

Results

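Pitx1, Foxi3, Sp6, Irx1, Trp63, Sox2, Isl1 and Tbx1 are 8 transcription factor genes of the dental epithelium, and they were described here in mouse first molar tooth germs. The members are the rows of the gene count table that carry these symbols. All 8 symbols were found among the 52636 genes of the table, and 7 of them passed the filter on low counts, as did 19101 genes in all. Isl1 did not pass it.

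A molar germ is built by an epithelium that buds from the oral surface and by the neural crest mesenchyme that condenses around it. At the bud stage the epithelium is a simple ingrowth. At the cap stage a signaling center, the enamel knot, forms within it, and at the bell stage the epithelium folds into the shape of the crown and begins to set aside the layer that will make enamel. Transcription factors of the epithelium act at each of these steps, some by holding cells in a progenitor state, some by building a stratified epithelium and others by preparing cells for enamel formation.

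The samples were wild type C57BL/6JOlaHsd mouse molars, dissected with little surrounding tissue and sequenced as whole germs, each tooth as its own library. No genotype, treatment or transgene is named that differs between groups. The gene counts cover 7 teeth labelled E13.5 (bud stage, called E13 here), 7 labelled E14.5 (cap stage, E14) and 7 labelled E16.5 (bell stage, E16), from 7, 6 and 5 embryos. A second table of estimated counts covers the same E13 and E16 teeth and 6 teeth of a further group labelled E15. The paper on these data gives strain and dissection for the E13, E14 and E16 mouse teeth and does not describe E15 mouse teeth. The E15 teeth carry labels and processing notes of their own, so that a difference between batches and a difference between E15 and the other stages cannot be told apart. Total counts per tooth ran from 17814073 to 27115729 in the gene counts and from 14965319 to 24056056 in the second table. Levels are given as CPM, counts divided by the size of the library and put on the usual common scale, with library sizes corrected by the trimmed mean of M-values (TMM), and differences as log2 fold changes with their standard errors (SE) from edgeR's quasi-likelihood test, with p-values adjusted by the Benjamini-Hochberg method over all genes tested and called at 0.05. Because whole germs were sequenced, a change in the number of cells of a type and a change in RNA per cell cannot be told apart.

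The levels of general epithelial markers themselves moved with age. The summed level of 8 epithelial markers (Epcam, Cdh1, Esrp1, Esrp2, Krt5, Krt14, Cldn7 and St14) was 490 to 774 CPM at E13, 879 to 1196 CPM at E14 and 1216 to 2263 CPM at E16, and 7 of the 8 were higher in each of the 3 pairwise comparisons. The sum of 8 dental mesenchyme markers had its medians at 3527, 3027 and 1737 CPM in the same order. Of these 8, 6 were lower at E16 than at E13. Over all genes tested, 21.6% were higher and 19.6% lower at E16 than at E13. Markers of cornified or oral surface epithelium, such as Krt13 and Krt4, summed to 7.81 to 9.75 CPM at E13, 17.6 to 28.4 CPM at E14 and 540 to 1198 CPM at E16, with Ivl and Lor below 1 CPM at every stage. Values of the members are therefore given both against library totals and against the epithelial markers. The left tooth of embryo 3 at E16 stood apart from the other 6, being the lowest E16 tooth in 9 of 12 marker lists, and the left tooth of embryo 7 at E13 carried 1208 CPM of skeletal muscle markers against a stage median of 41.2 CPM. Where leaving out one of these teeth changed a member's call, both values are given.

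Against library totals, 5 of the 7 tested members rose from E13 to E16 and 2 fell. Sp6 rose 53.6-fold, Foxi3 7.53-fold, Tbx1 4.16-fold, Irx1 2.76-fold and Trp63 2.65-fold, whereas Pitx1 was 1.70-fold lower and Sox2 1.46-fold lower. All 7 passed the test of E16 against E13, where 41.3% of all genes tested were called, 21.6% as higher and 19.6% as lower. In E14 against E13, 5 members rose and 1 fell, with 19.7% of all genes called, 11.3% higher and 8.47% lower. From E14 to E16, 5 rose and none fell, with 28.1% of genes called, 15% higher and 13.1% lower. The counts of called members were the same without the E16 left tooth of embryo 3, and DESeq2 gave the same calls for these 7 genes in the 3 comparisons.

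**Figure D1:**
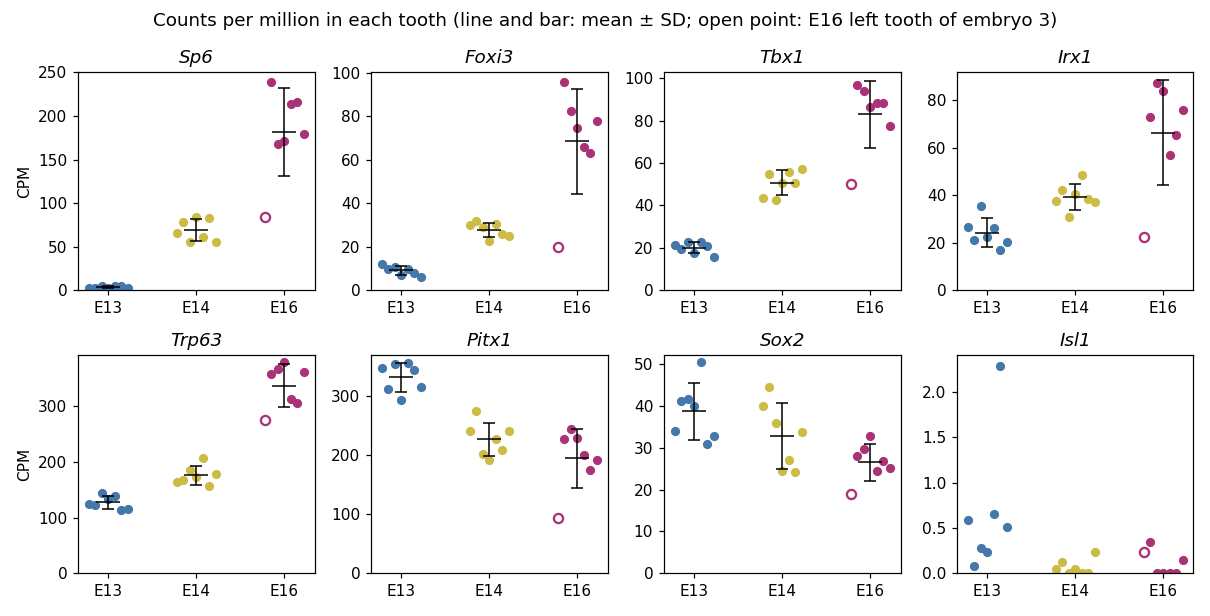
CPM of each member in each of the 21 teeth (y axis, linear, from 0) by stage (x axis), with the mean and SD as a line and bar, except for Isl1, where only the teeth are drawn; the open point is the E16 left tooth of embryo 3. Sp6 goes from 2.0 to 5.28 CPM at E13 to 83.7 to 239 CPM at E16, Pitx1 starts at 292 to 355 CPM and ends at 94.2 to 244 CPM, and Isl1 stays below 2.3 CPM throughout.

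Sp6, also called epiprofin, is a zinc finger factor of the Sp family that is needed for ameloblasts, the enamel-forming cells, to differentiate. It lies at chr11:97013394-97024734 on the plus strand (GRCm38). Its lowest, median and highest teeth were at 2.0, 2.71 and 5.28 CPM at E13, at 55.4, 65.9 and 83.7 CPM at E14, and at 83.7, 179 and 239 CPM at E16. Every E14 tooth was above every E13 tooth, and the E16 teeth began where the E14 teeth ended, since the lowest E16 tooth, the left tooth of embryo 3, was level with the highest E14 tooth. The log2 fold change was 4.35 ± 0.22 (SE) from E13 to E14 (edgeR adjusted p = 1.5e-12) and 1.40 ± 0.19 from E14 to E16 (edgeR adjusted p = 3.4e-06). Gm11532, a transcript on the opposite strand, shares 3329 of the 3841 exon bases of Sp6. It had 1 to 48 counts per tooth, and the sum of Sp6 over the 14 teeth in both tables was 31700 gene counts and 30997 estimated counts. The effect of the overlap with Gm11532 on the counts of Sp6, in either direction, was not tested further.

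Foxi3 is a forkhead factor of placodes and dental epithelium that responds to ectodysplasin signaling, and it lies at chr6:70956531-70961066 on the plus strand. At E13 its lowest, median and highest values were 6.24, 9.75 and 12.2 CPM. They were 22.7, 28.9 and 31.6 CPM at E14 and 19.8, 74.6 and 95.9 CPM at E16. E13 and E14 did not overlap, and 6 of 7 E16 teeth were above every E14 tooth, the exception being the left tooth of embryo 3. The log2 fold changes were 1.61 ± 0.22 to E14 (edgeR adjusted p = 7.9e-06) and 1.30 ± 0.21 from E14 to E16 (edgeR adjusted p = 3.4e-05).

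Tbx1, a T-box factor of the pharyngeal region and of the dental epithelium (chr16:18580979-18590671, minus strand), followed the same order. Its lowest, median and highest teeth were at 15.8, 20.6 and 22.6 CPM at E13, 42.5, 50.7 and 57.1 CPM at E14, and 50.1, 88.4 and 97.0 CPM at E16. No E14 tooth reached down to the E13 teeth, and 6 of 7 E16 teeth were above every E14 tooth. The log2 fold change was 1.34 ± 0.12 from E13 to E14 (edgeR adjusted p = 1.1e-08) and 0.71 ± 0.12 from E14 to E16 (edgeR adjusted p = 4.0e-05).

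Irx1 belongs to the Iroquois homeodomain family, which patterns many embryonic tissues, and lies at chr13:71957921-71963723 on the minus strand. Its teeth had a lowest, median and highest value of 16.7, 22.3 and 35.5 CPM at E13, 30.7, 38.2 and 48.4 CPM at E14, and 22.3, 72.9 and 87.1 CPM at E16. Here neighbouring stages overlapped: 6 of 7 E14 teeth were above every E13 tooth, and 6 of 7 E16 teeth above every E14 tooth. Irx1 rose by 0.71 ± 0.20 on the log2 scale to E14 (edgeR adjusted p = 0.014) and by 0.76 ± 0.20 from E14 to E16 (edgeR adjusted p = 0.0052).

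Trp63 encodes p63, the p53 relative that stratified epithelia need to form, and spans chr16:25683763-25892102 on the plus strand. It was at 114, 124 and 145 CPM (lowest, median and highest tooth) at E13, at 157, 173 and 208 CPM at E14, and at 276, 359 and 379 CPM at E16. None of the 3 stages overlapped, and the left tooth of embryo 3 was again the lowest at E16. Its log2 fold changes, with the smallest SE of the 7, were 0.47 ± 0.08 to E14 (edgeR adjusted p = 1.9e-04) and 0.94 ± 0.08 from E14 to E16 (edgeR adjusted p = 3.7e-09).

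Pitx1, a paired-like homeodomain factor of the bicoid class, is known from the oral epithelium, from the mesenchyme of the lower jaw and from the hindlimb. It lies at chr13:55825051-55836192 on the minus strand. The lowest, median and highest E13 teeth had 292, 343 and 355 CPM. At E14 these were 191, 226 and 274 CPM, and at E16 94.2, 201 and 244 CPM. All E13 teeth were above all later teeth, whereas E14 and E16 overlapped widely. Pitx1 fell by 0.55 on the log2 scale from E13 to E14 (SE 0.14, edgeR adjusted p = 0.0055), and the difference between E14 and E16 was -0.22 ± 0.14 (edgeR adjusted p = 0.24; 95% interval -0.49 to 0.05). Without the E16 left tooth of embryo 3 that last difference was -0.09, and that between E13 and E16 went from -0.77 to -0.64 with its call kept. Short exon stretches of Pitx1 are shared with Gm47071 on the opposite strand (165 bases) and with Gm28760 on the same strand (108 bases), which had at most 657 and 155 counts per tooth.

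Sox2 is an HMG-box factor that marks progenitors of the dental epithelium and sustains their renewal in teeth that keep growing. It lies at chr3:34650405-34652461 on the plus strand, inside the noncoding gene Sox2ot, with which it shares no exon base. Its lowest, median and highest teeth were at 30.9, 40.0 and 50.5 CPM at E13, at 24.1, 33.8 and 44.4 CPM at E14, and at 18.9, 26.9 and 32.8 CPM at E16. Each stage overlapped the next, and 6 of 7 E16 teeth were below every E13 tooth. Neither step passed the test alone, with -0.24 ± 0.14 from E13 to E14 (edgeR adjusted p = 0.25) and -0.31 ± 0.14 from E14 to E16 (edgeR adjusted p = 0.11), but from E13 to E16 Sox2 fell by 0.54 (SE 0.14, edgeR adjusted p = 0.0031).

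Isl1, a LIM homeodomain factor known from the epithelium of the incisor region, was hardly detected. Its gene (chr13:116298281-116309689, minus strand) gave 106 counts over the 7 E13 teeth, 11 over the 7 E14 teeth and 18 over the 7 E16 teeth. All E13 teeth had at least 2 counts, while 3 teeth at E14 and 4 at E16 had none, and a count of 0 in these libraries allows at most 0.13 to 0.17 CPM (3 counts in the shallowest library of the stage, counting error only). The left tooth of embryo 7 at E13 held 56 of the 106 counts, and this is the tooth with 1208 CPM of skeletal muscle markers; the part of muscle in this value was not tested. The other 6 E13 teeth held 50 counts between them. With every gene that had any count kept in the fit, Isl1 was at -3.28 ± 0.90 on the log2 scale in E14 against E13 (edgeR adjusted p = 0.015) and at -2.60 ± 0.85 in E16 against E13 (edgeR adjusted p = 0.025). In a fit added after seeing the data, without the left tooth of embryo 7, neither was called, at -2.51 ± 0.93 (edgeR adjusted p = 0.095) and -1.84 ± 0.90 (edgeR adjusted p = 0.15).

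Counted by overlap rather than by test, 5 of the 7 tested members had E14 teeth wholly apart from E13 teeth (Sp6, Foxi3, Tbx1, Trp63 and Pitx1), against 9.91% of all genes tested. In E16 against E14 there were 2 (Sp6 and Trp63), against 10.9% of all genes, and in E16 against E13 there were 5 (the same 5 as in E14 against E13), against 19.0%. Sp6 was barely apart in E16 against E14, with 83.72 CPM in its lowest E16 tooth and 83.71 CPM in its highest E14 tooth. Irx1 and Sox2 overlapped in all 3 comparisons.

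The shape of the time course was tested by setting E14 against the mean of E13 and E16 on the log2 scale. Sp6 at E14 was 1.48 ± 0.16 above that midpoint (edgeR adjusted p = 5.5e-07), Tbx1 was 0.32 ± 0.10 above it (edgeR adjusted p = 0.034) and Trp63 was at -0.24 ± 0.07 against it (edgeR adjusted p = 0.027). The remaining 4 were not called, with differences from -0.16 for Pitx1 to 0.15 for Foxi3, and 13.7% of all genes tested were called, 6.89% higher and 6.84% lower. The Tbx1 call was lost in 12 of 28 alternative fits, with adjusted p-values (edgeR, DESeq2 or limma) from 0.009 to 0.094. Among these were both fits that take account of shared embryos, with teeth of 1 embryo summed (edgeR adjusted p = 0.080) and with embryo as a random effect (limma adjusted p = 0.055). The Trp63 call was lost when the E14 right tooth of embryo 6 was left out, and Pitx1 was called (log2 difference -0.23, edgeR adjusted p = 0.017) without the E16 left tooth of embryo 3.

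To set the members against the 8 epithelial markers, the same counts were scaled to the geometric mean of these markers in place of library totals. That mean was 41.6 ± 6.71 CPM (SD, n = 7) at E13, 59.2 ± 6.79 CPM at E14 and 93.5 ± 16.4 CPM at E16. On this scale the median of all genes shifted by -0.53 from E13 to E14, by -0.62 from E14 to E16 and by -1.16 from E13 to E16 on the log2 scale, so that a value at the shift stands for a gene that moved like the median gene. From E13 to E16, 84.8% of all genes tested were called, 3.99% as higher and 80.8% as lower.

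**Figure D2:**
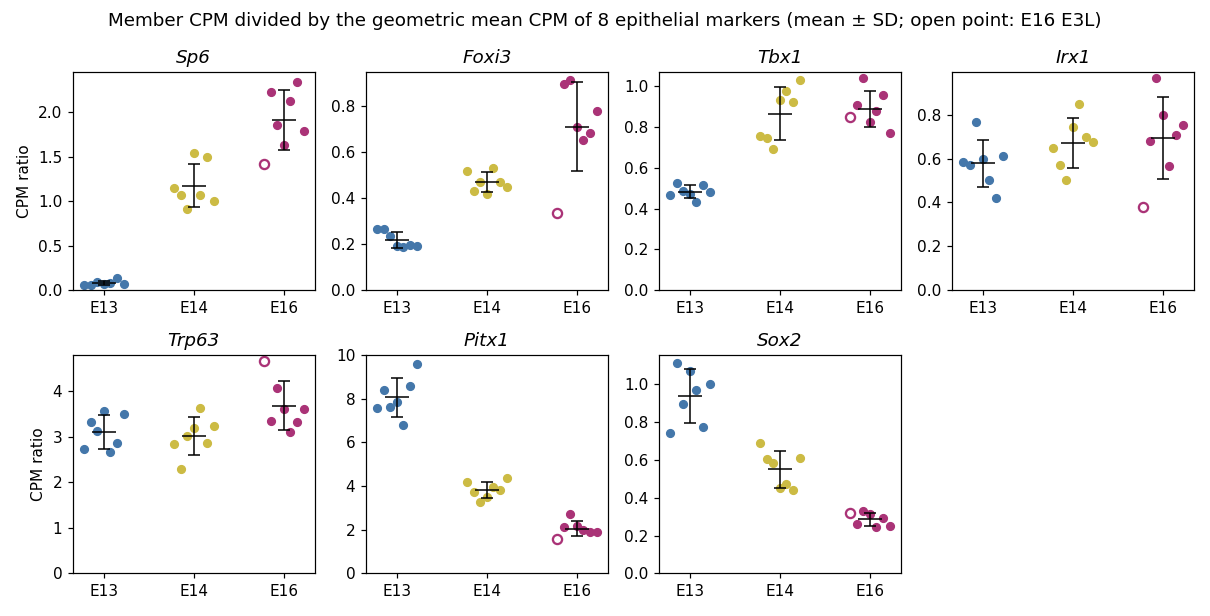
CPM of each tested member divided by the geometric mean CPM of the 8 epithelial markers in the same tooth (y axis, linear, from 0) by stage (x axis), with mean and SD; the open point is the E16 left tooth of embryo 3. Pitx1 and Sox2 step down at each stage without overlap, Sp6 and Foxi3 step up, and Irx1 and Trp63 overlap across all stages.

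Relative to the epithelial markers, the 7 members fell into 3 kinds. Sp6, Foxi3 and Tbx1 still rose from E13 to E16, by 4.56 ± 0.19, 1.70 ± 0.16 and 0.88 ± 0.11 on the log2 scale (edgeR adjusted p = 6.0e-17, 2.5e-10 and 5.5e-08). Pitx1 fell by 1.97 (SE 0.12) and Sox2 fell by 1.71 (SE 0.13), to levels 3.93-fold and 3.28-fold lower (edgeR adjusted p = 8.1e-14 and 6.3e-12), and both also lay below the shift of the median gene. The 8 dental mesenchyme markers were all lower on this scale as well, with a median log2 fold change of -1.94, and their median against library totals was -0.74, beside -0.77 for Pitx1. Whether the Pitx1 counts came from epithelium or mesenchyme was not tested. Irx1 (0.26 ± 0.16, edgeR adjusted p = 0.13) and Trp63 (0.24 ± 0.12, edgeR adjusted p = 0.056) were not called. Their 95% intervals, not adjusted for the number of genes tested, were -0.06 to 0.58 and 0.01 to 0.47. That of Trp63 lay just above 0, and neither interval shows that Irx1 or Trp63 kept pace exactly. Both were called as higher when Krt5 and Krt14 were left out of the markers, Irx1 at 0.43 (edgeR adjusted p = 0.019) and Trp63 at 0.43 (edgeR adjusted p = 0.0029), and Irx1 also without the E16 left tooth of embryo 3 (0.37, edgeR adjusted p = 0.012). Trp63 was called in 6 of 23 alternative fits, among them those without the left tooth of embryo 3 or the right tooth of embryo 9 at E13, the right tooth of embryo 2 at E14, or the right tooth of embryo 7 or the left tooth of embryo 8 at E16 (edgeR adjusted p = 0.037 to 0.049).

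The ratio in each tooth shows the same thing. Pitx1 stood at 6.82 to 9.60 times the marker mean at E13, 3.28 to 4.36 times at E14 and 1.59 to 2.70 times at E16, with no overlap between stages. Sox2 went from 0.75 to 1.11 at E13 through 0.44 to 0.69 at E14 to 0.24 to 0.33 at E16, again with no overlap. By this ratio 5 members had stages wholly apart in E14 against E13 (23.3% of all genes), 2 in E16 against E14 (24.5%) and 5 in E16 against E13 (45.4%), and the 2 were Pitx1 and Sox2. Tbx1 rose on the epithelial scale up to the cap stage and was not called after it, with 0.84 ± 0.11 from E13 to E14 (edgeR adjusted p = 3.0e-06) and 0.04 ± 0.11 from E14 to E16 (edgeR adjusted p = 0.77; 95% interval -0.18 to 0.26). Foxi3 and Sp6 were called as higher in both steps, from E14 to E16 by 0.60 ± 0.16 and 0.70 ± 0.16 (edgeR adjusted p = 0.0018 and 4.3e-04). The calls on this scale were 3 higher and 2 lower in each comparison, with 61.2% of all genes called from E13 to E14 (2.96% higher and 58.2% lower) and 64.1% from E14 to E16 (3.90% higher and 60.2% lower). The third member higher from E14 to E16 was Trp63 (0.29 ± 0.12, edgeR adjusted p = 0.032), a call lost in 6 of 23 alternative fits. It was lost with teeth of 1 embryo summed (0.31, edgeR adjusted p = 0.053), without the E16 left tooth of embryo 3 (0.22, edgeR adjusted p = 0.059) or of embryo 6, and without the E14 right tooth of embryo 1, 2 or 6 (highest edgeR adjusted p = 0.072). The cornified and oral surface markers rose over the same interval, and their part in these ratios was not tested.

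**Figure D3:**
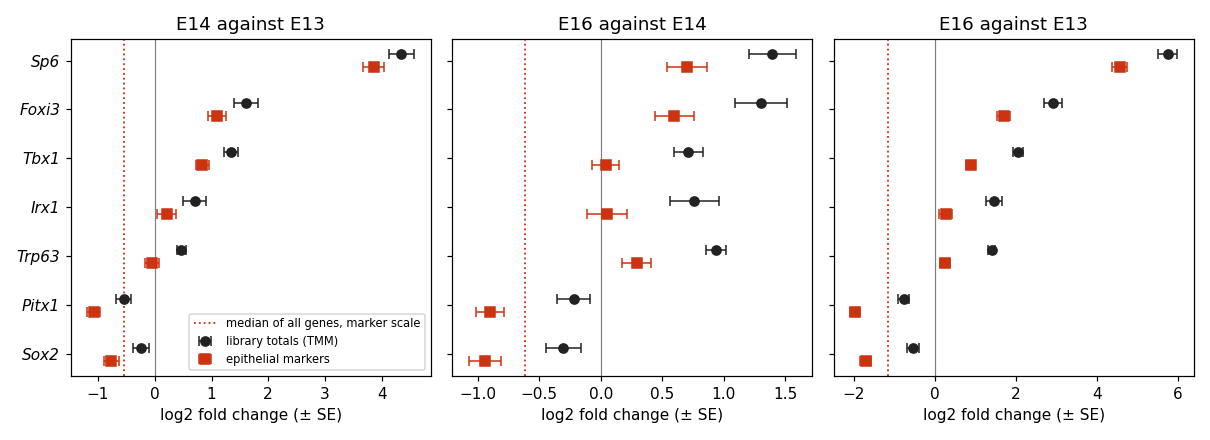
Log2 fold changes (x axis) with SE for the 7 tested members (y axis) in 3 comparisons, scaled to library totals (black circles) and to the epithelial markers (red squares); the dotted line is the median of all genes on the marker scale. On the marker scale Irx1 and Trp63 lie close to 0 from E13 to E14, Pitx1 and Sox2 lie left of the dotted line, and Sp6, at 3.86, lies far to the right.

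The sequence before the RefSeq start of a gene that rose and of a gene that fell is shown for comparison. RefSeq (GRCm38.p6) gave upstream sequence for Foxi3, Sox2, Isl1 and Tbx1, that is, for 4 of the 8 members. The 250 bases before the RefSeq start of Foxi3 (chr6:70956356-70956605, plus strand) and of Sox2 (chr3:34649745-34649994, plus strand) read as follows, 5′ to 3′, with capitals marking the GC box letters GGGCGG on either strand, a sequence bound by Sp family factors such as Sp6.
Foxi3: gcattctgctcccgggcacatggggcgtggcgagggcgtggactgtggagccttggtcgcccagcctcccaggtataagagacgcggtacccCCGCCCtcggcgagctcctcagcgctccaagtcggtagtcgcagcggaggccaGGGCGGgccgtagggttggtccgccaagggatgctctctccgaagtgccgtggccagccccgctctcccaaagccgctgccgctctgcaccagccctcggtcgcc
Sox2: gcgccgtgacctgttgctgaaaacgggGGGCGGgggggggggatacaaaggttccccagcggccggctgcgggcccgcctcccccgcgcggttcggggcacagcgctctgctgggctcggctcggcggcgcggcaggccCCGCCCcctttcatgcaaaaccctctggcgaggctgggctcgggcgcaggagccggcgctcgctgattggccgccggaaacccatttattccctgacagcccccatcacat
The gene coordinates given above come from another annotation: by these, the last 75 bases of the Foxi3 window lie inside the gene, and the Sox2 window ends 410 bases before it. Each window held 2 GC boxes, and 32.7% of the 32851 upstream windows of all genes held at least 1. The base composition was alike, with 70.4% G or C in Foxi3 and 72.0% in Sox2, against a median of 52.4% over all windows. Neither held TAATCC, the bicoid-class letters (6.25% of all windows, either strand), or TCAAAG, a form of the Lef/Tcf letters (13.8%). They also held no TAAACA, a forkhead core (12.0%), no AGGTGT, a T-box core (11.8%), and no ACAATG, a Sox core (10.7%). Other forms of these letters were not sought. The other windows held other letters: of the 2 windows of Tbx1, one held 1 GC box and the other none but 1 copy of the T-box letters, and the window of Isl1 held no GC box and 1 copy of the bicoid-class letters. These matches are a description of the letters and say nothing of the factors that bind there.

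The table with E15 teeth places a further stage between cap and bell, beside the same E13 and E16 teeth. All 8 members had a row among its 14185 genes, and 7 of them and 13447 genes in all were tested. Tbx1, Irx1, Foxi3, Sp6 and Trp63 had risen by E15 and Pitx1 had fallen, so that 6 members were called in E15 against E13, where 26.8% of all genes were called, 18.3% higher and 8.49% lower. Pitx1 was at 179 to 285 CPM at E15 against 341 to 414 CPM at E13 in this table, and at 127 to 285 CPM at E16. Its log2 difference was -0.91 ± 0.14 from E13 to E15 (edgeR adjusted p = 4.0e-05) and 0.16 ± 0.14 from E15 to E16 (edgeR adjusted p = 0.66), so no further fall was detected.

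**Figure D4:**
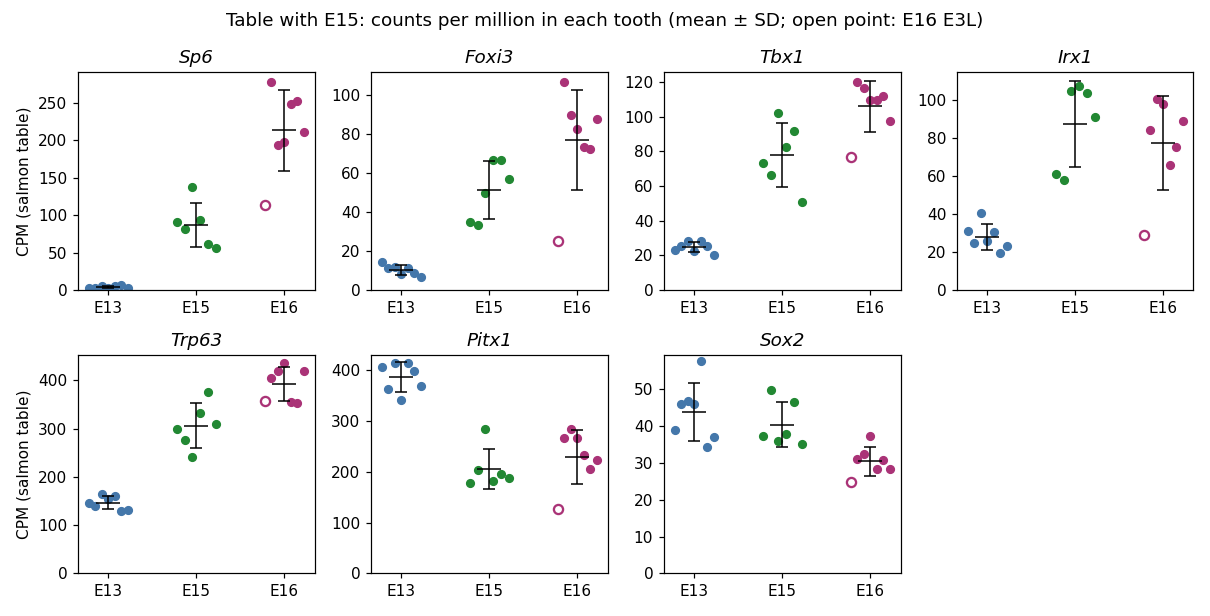
CPM of each tested member in the table of estimated counts (y axis, linear, from 0) at E13 (7 teeth), E15 (6 teeth) and E16 (7 teeth) on the x axis, with mean and SD; the open point is the E16 left tooth of embryo 3. Sp6 is the member with the widest step from E15 to E16, Irx1 at E15 (57.7 to 108 CPM) reaches as high as at E16 (29.1 to 101 CPM), and Sox2 spans 35.1 to 49.8 CPM at E15 and 24.9 to 37.4 CPM at E16.

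Sox2 had 34.4 to 57.5 CPM at E13, 35.1 to 49.8 CPM at E15 and 24.9 to 37.4 CPM at E16 in this table. The log2 difference of Sox2 was -0.12 ± 0.12 up to E15 (edgeR adjusted p = 0.51) and -0.41 ± 0.12 from E15 to E16 (edgeR adjusted p = 0.048). That last call was lost in 17 of 23 alternative fits, among them those with DESeq2 size factors (edgeR adjusted p = 0.069), with no filter (0.051) and without the E16 left tooth of embryo 3 (-0.36, edgeR adjusted p = 0.058). Irx1 was at 1.65 ± 0.23 up to E15 (edgeR adjusted p = 6.0e-06) and -0.18 ± 0.22 after it (edgeR adjusted p = 0.78).

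From E15 to E16, 6.33% of all genes were called, 3.64% higher and 2.69% lower, and 4 members were among them. Sp6 rose by 1.29 ± 0.22 (edgeR adjusted p = 4.9e-04), from 56.3 to 138 CPM at E15 to 113 to 277 CPM at E16. The calls of Sox2, Tbx1 (0.45 ± 0.13, edgeR adjusted p = 0.047) and Trp63 (0.36 ± 0.10, edgeR adjusted p = 0.025) lay near the threshold. Those of Tbx1 and Trp63 were lost in 16 and 5 of 23 alternative fits, that of Tbx1 also without the E13 left tooth of embryo 7 (edgeR adjusted p = 0.057). No alternative fit here took account of shared embryos. Leaving out single teeth left 1 to 4 of the 4 calls, 1 being reached without the E15 left tooth of embryo 3, the E16 left tooth of embryo 5, the E16 left tooth of embryo 6 or the E16 right tooth of embryo 8. Foxi3 (0.58 ± 0.24, edgeR adjusted p = 0.18) was called only when the E16 left tooth of embryo 3 was left out (0.73, edgeR adjusted p = 0.0088).

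The E16 left tooth of embryo 3 was the lowest E16 tooth for all 7 tested members. It was also the lowest in 9 of 12 marker lists, and the share of all genes for which it was lowest was not counted. It had 26.0% of the median of the other 6 teeth for Foxi3, 30.1% for Irx1, 42.6% for Sp6, 44.1% for Pitx1, 56.7% for Tbx1, 68.7% for Sox2 and 76.5% for Trp63. Its epithelial marker sum was at 62.3% and its dental mesenchyme sum at 68.8%, its enamel knot sum at 44.0% and its endothelial sum at 33.4%, while cornified or oral surface markers stood at 135% and skeletal muscle markers at 165%. It was also the shallowest E16 library, with 17814073 counts, but had counts for 27271 genes against 24696 to 26408 in the others. Without this tooth the log2 fold changes from E13 to E16 were 5.88 for Sp6, 3.09 for Foxi3, 2.16 for Tbx1, 1.63 for Irx1, 1.46 for Trp63, -0.64 for Pitx1 and -0.46 for Sox2, all still called.

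**Figure D5:**
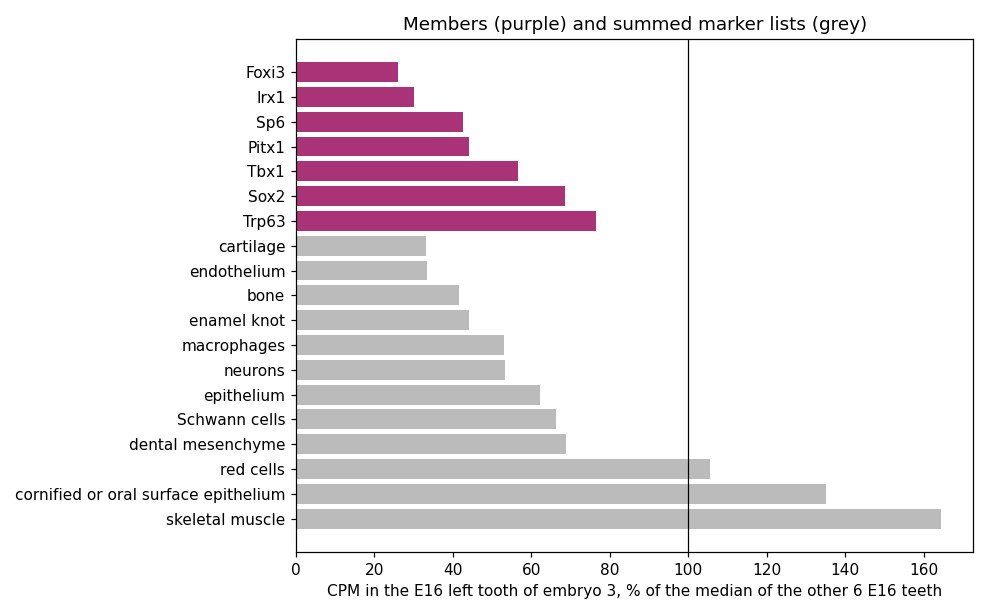
CPM in the E16 left tooth of embryo 3 as a percentage of the median of the other 6 E16 teeth (x axis, linear, from 0), for the 7 tested members (purple) and for the sums of 12 marker lists (grey). The members run from 26.0% for Foxi3 to 76.5% for Trp63, and 3 marker lists (red cells, cornified or oral surface epithelium and skeletal muscle) lie above 100%.

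Levels were compared between members per kilobase of exon, counting the merged exons of all annotated transcripts of a gene. This length was 8391 bases for Trp63 and 1281 bases for Foxi3. The order of members with close levels can depend on it, and other lengths were not tried. At E13 Pitx1 was the highest of the 8, with 125 ± 9.30 CPM per kilobase (SD, n = 7), which was 6.62 times Sox2 (18.8 ± 3.29), the next. Trp63 (15.2 ± 1.41), Irx1 (9.18 ± 2.33), Foxi3 (7.11 ± 1.66) and Tbx1 (5.69 ± 0.72) came next, each overlapping its neighbour in range although ranked above it in all 7 teeth. Sp6 was at 0.88 ± 0.32 and Isl1 at 0.17 ± 0.19. By E14 Pitx1 was still first (85.1 ± 10.8), but Foxi3, Trp63, Sp6, Sox2, Irx1 and Tbx1 had drawn together between 14.4 and 21.6 CPM per kilobase, and the ranges of every 2 neighbours among these overlapped. At E16 Pitx1 (73.1 ± 18.9), Foxi3 (53.4 ± 18.8), Sp6 (47.3 ± 13.2) and Trp63 (40.2 ± 4.62) came first, followed by Irx1 (25.3 ± 8.38), Tbx1 (23.6 ± 4.49) and Sox2 (12.9 ± 2.14), and each overlapped the next in range. Sox2, second at E13, had the lowest mean of the tested members.

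The genes whose log2 CPM followed a member most closely over the 21 teeth were sought among 13482 protein-coding genes, members included. For Sp6 these were Casz1, Lamc3 and Gldn (Pearson r = 0.99 each), for Foxi3 Dsp (r = 0.98), AI661453 (r = 0.98) and Msx2 (r = 0.97), and for Tbx1 Casz1, Has3 and the member Sp6 (r = 0.98 each). Genes near Irx1 were Spint2 (r = 0.96) and Trp53i11 (r = 0.95). Trp63 was most like Dst, Ahnak2 and Afap1l2 (r = 0.98 each), Pitx1 most like Hsd17b4, Chd3 and Iglon5 (r = 0.95 each), and Sox2 most like Vars2 (r = 0.84), Dmrt2 (r = 0.83) and Xpnpep2 (r = 0.81). These values describe a shared order of stages. With the mean of each stage removed, the teeth within a stage gave other names: Kdm6b, Zmiz2 and Setd1b for Pitx1 (r = 0.97 each), Pnpla2 (r = 0.95), Jpt1 and Pkm (r = 0.94 each) for Foxi3, N4bp3 (r = 0.85), Rbm19 and Zfp217 (r = 0.83 each) for Sp6, Six2 (r = 0.94) and Cenpb (r = 0.93) for Irx1, Uqcc3 (r = 0.86), Arl2 and Rspo1 (r = 0.83 each) for Trp63, Foxe1 (r = 0.83), Tmub1 (r = 0.82) and Misp (r = 0.81) for Sox2, and Aamp (r = 0.91), Zfpl1 and Sphk2 (r = 0.90 each) for Tbx1. Without the E16 left tooth of embryo 3, Foxe1, Tmub1 and Misp stayed the 3 nearest Sox2. Six2 (r = 0.82) stayed among the 3 genes nearest Irx1, and Cenpb did not. Kdm6b and Zmiz2 stayed for Pitx1, Pnpla2 for Foxi3 and Arl2 for Trp63. Setd1b, Jpt1, Pkm, Uqcc3 and Rspo1 did not stay, nor did any of the 3 named for Tbx1 or for Sp6. Among the members themselves, the 21 pairs had r from 0.16 to 0.88 within stages with that tooth, and from -0.14 to 0.70 without it.

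Relatives of the members did not all move with them. From E13 to E16 Irx2 rose with Irx1, by 1.65 on the log2 scale (edgeR adjusted p = 2.9e-09), and Sp5 with Sp6, by 1.65 (edgeR adjusted p = 3.5e-05), the latter from 2.36 to 7.41 CPM on average. Tbx3, a T-box gene, fell by 1.5 on the log2 scale (edgeR adjusted p = 8.5e-10) while Tbx1 rose. Of 21 listed relatives 12 were tested, and from E13 to E16 4 were higher and 4 lower. Over all genes tested, 21.6% were higher and 19.6% lower. The median log2 fold change was 0.15 against -0.01 over all genes tested. With the E16 left tooth of embryo 3 left out, 6 relatives were higher and 4 lower. Foxi1 had no count in any tooth, and Foxi2 was at 0 at E14 and E16, so that Foxi3 was the one gene of its group with a level to follow.

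Other transcription factors of the epithelium mostly rose with the members. Of 31 listed, 30 were tested: 17 rose and 1 fell from E13 to E14, 18 rose and 2 fell from E14 to E16, and 21 rose and 3 fell from E13 to E16, with medians of 0.58, 0.73 and 1.01 on the log2 scale. Among those with the smallest adjusted p were Msx2, a homeobox gene of the enamel knot and ameloblasts (3.75 from E13 to E16), Grhl1 (1.62) and Tfap2a (1.71), with edgeR adjusted p-values of 2.2e-12, 1.1e-10 and 1.1e-10. The 3 that fell from E13 to E16 with all teeth kept, named after their values were seen, were Irx3 (-0.77), Tfap2c (-0.47) and Klf4 (-0.44). On the scale of the epithelial markers, 10 of this list were higher, 11 lower and 9 not called from E13 to E16. It was 12 higher and 12 lower without the E16 left tooth of embryo 3. Over all genes tested, 3.99% were higher and 80.8% lower on that scale. The median of the list was -0.15 against -1.16 over all genes tested.

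Of 10 signaling genes known to act on these factors, 7 were higher and 1 lower at E16 than at E13. Over all genes tested, 21.6% were higher and 19.6% lower. With the E16 left tooth of embryo 3 left out, 8 of the signaling genes were higher and 1 lower. Shh, the signal of the enamel knot, rose by 5.20 on the log2 scale (edgeR adjusted p = 1.3e-11), Edar, the ectodysplasin receptor upstream of Foxi3, by 2.48 (edgeR adjusted p = 6.4e-12), Wnt10b by 1.35 (edgeR adjusted p = 6.1e-09) and the activin antagonist Fst by 1.16 (edgeR adjusted p = 8.5e-10). The 1 that was lower was Fgf8, an early epithelial signal, at -5.54 (edgeR adjusted p = 9.7e-09), named after its value was seen. Of 10 genes downstream of p63, 9 were higher and none lower, among them Perp (2.17), Krt5 (2.28) and Fgfr2 (0.94). All 10 were higher without the E16 left tooth of embryo 3. Krt5 and Krt14 of this list are also among the epithelial markers. Relative to those markers 4 of the 10 were higher and 3 lower, where 3.99% of all genes tested were higher and 80.8% lower. Without the same tooth, 3 of the 10 were higher and 4 lower on that scale.

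The epithelial stem cell niche, with which Sox2 is usually grouped, held genes of both directions. Of 9 listed, 5 were higher at E16 than at E13 and 3 lower, with a median log2 fold change of 0.65. Over all genes tested, 21.6% were higher and 19.6% lower. With the E16 left tooth of embryo 3 left out, 6 of the 9 were higher and 3 lower. Sfrp5, a secreted Wnt inhibitor, rose by 4.15 (edgeR adjusted p = 3.3e-08), Lfng, a modifier of Notch receptors, by 1.54 (edgeR adjusted p = 1.6e-08), Notch1 by 0.88 (edgeR adjusted p = 2.8e-06) and Gli1, a target of Shh, by 0.65 (edgeR adjusted p = 1.2e-06). The 3 lower genes, named after their values were seen, were Lgr5 (-0.44), Lrig1 (-0.41) and Bmi1 (-0.24), beside -0.54 for Sox2. Relative to the epithelial markers 1 of the 9 was higher, 6 were lower and 2 were not called, with a median of -0.51. Without the same tooth 2 were higher and 6 lower on that scale. Over all genes tested the median on that scale was -1.16, with 3.99% higher and 80.8% lower.

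Both first molars of an embryo were sequenced in 3 cases, which gives the spread between sides. In embryo 6 at E16 the 7 tested members differed between left and right by 1.02-fold to 1.11-fold, in embryo 8 at E16 by 1.07-fold to 1.24-fold, and in embryo 6 at E14 by 1.08-fold to 1.34-fold, with Sp6 furthest apart in the last. The smallest steps called between neighbouring stages of the gene counts were those from E13 to E14 of Trp63, 1.38-fold beside a gap of 1.33-fold between the sides in embryo 6 at E14, and of Pitx1, 1.46-fold lower beside a gap of 1.08-fold.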

How the data were processed

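Single first molar germs of wild type C57BL/6JOlaHsd embryos at E13, E14 and E16 were homogenized whole and sequenced on an Illumina NextSeq 500, one library per tooth. The paper on these data does not describe these steps for the E15 mouse teeth. The deposited gene counts were made by the authors, who trimmed and quality-filtered the reads (Trimmomatic, AfterQC, FastQC), mapped them with STAR on GRCm38 and assigned them to genes with HTSeq; the strand setting is not given in the sources used here. The deposited estimated counts of the table with E15 teeth were made with salmon, per the labels, and hold 14185 genes; how these genes were chosen is not given in the sources used here. Teeth of E13, E14 and E16 were grouped by their labelled day, and 1 E15 tooth has no values used here. Gene symbols came from GENCODE (GRCm38), which lacked 147 of the Ensembl identifiers counted.

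Counts were analysed with edgeR 4.0.16 in R 4.3.3 (filterByExpr, TMM, quasi-likelihood F-test, 1 fit per table with stage as factor, no covariate), and p-values were adjusted by Benjamini-Hochberg over all genes tested. The SE was worked out from that test, as the absolute log2 fold change divided by the square root of its F statistic. The biological coefficient of variation was 21.2%. For the epithelial scale, TMM factors were replaced by the geometric mean count of 8 markers. Likeness was Pearson's r of log2 CPM (prior count 2) among protein-coding genes with a mean of at least 1 CPM. Alternatives were DESeq2 1.42.0, its size factors and no filter, for both sets of counts scaled to library totals. Only the gene counts on that scale had side of the jaw as a factor and limma 3.58.1 voom with embryo as a random effect. Teeth of 1 embryo were summed for the gene counts on both scales. Markers without Krt5 and Krt14 were tried on the epithelial scale, and each tooth was left out in every comparison. No alternative for the estimated counts took account of side or shared embryos. Of each fixed list the 4 genes with the smallest adjusted p over the 3 pairwise comparisons were named, plus genes said to be named after their values were seen; some genes that these rules select are not reported here. The members, lists and tests were chosen with earlier results of these data known. Teeth of 1 embryo are not independent animals. No 2 libraries agreed within sampling noise (the smallest chi-square per degree of freedom within a stage was 6.72). Counting floors cover counting error only. The intervals of the log2 fold changes were built from the SE of the quasi-likelihood test, which takes in the spread between teeth.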

Additional observations from a re-analysis of the deposited data

Results flagged for a closer look

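A tooth was picked out where its gap to the nearest tooth of its stage was large against the range of the stage (Dixon's test), in 32 combinations of member and stage, of which chance picks about 1 in 20. There were 4. Isl1 at E13 stood at 2.29 CPM in the left tooth of embryo 7, the tooth with 1208 CPM of skeletal muscle markers, against a stage median of 0.51 CPM. Foxi3 at E16 stood at 19.8 CPM and Tbx1 at E16 at 50.1 CPM in the left tooth of embryo 3, below 63.1 and 77.5 CPM in the next lowest teeth. Pitx1 at E15 stood at 285 CPM in the right tooth of embryo 4, against a stage median of 191 CPM.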

How the results depend on the processing

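The 7 tested members gave 70 log2 fold changes over 10 comparisons. Of these, 55 kept their direction and their side of the threshold in every alternative run for them, 1675 of 1757 alternative values in all. The 21 log2 fold changes from estimated counts had no alternative for shared embryos or side. In E14 against E13, E16 against E14 and E16 against E13 no member's call or direction changed. Values that changed sign were all close to 0 and not called. Irx1 in E14 against the mean of E13 and E16 was 0.048 with embryo as a random effect and -0.11 to 0.033 with 1 tooth left out. Sox2 in the same comparison was -0.0051 with side as a factor and -0.063 to 0.090 with 1 tooth left out. Relative to epithelial markers, Trp63 in E14 against E13 was 0.036 without Krt5 and Krt14 and -0.099 to 0.0088 with 1 tooth left out, and in E16 against E14 Irx1 was -0.0087 with teeth of 1 embryo summed and -0.044 to 0.16 with 1 tooth left out, and Tbx1 -0.0083 to 0.086. With 1 tooth left out, 1 to 4 members were called in E14 against the mean of E13 and E16, and 1 to 4 in E16 against E15. The count of all genes called with 1 tooth left out ran from 3077 to 5855 in E14 against E13, from 2040 to 3995 in E14 against the mean, and from 671 to 1382 in E16 against E15, the highest each time without the E16 left tooth of embryo 3. The estimated counts gave 4889 called genes in E16 against E13 where the gene counts gave 7887, with fewer genes tested. The causes of these changes were not tested. The combination of no filter without the E13 left tooth of embryo 7 was chosen after seeing the data. No paired analysis was possible because embryo numbers name different animals at different stages. Depth limits Isl1 alone among the members, and levels in whole germs carry no information on the cell that made the RNA.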
